A study of Mus musculus with 21 samples.

Results

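The ventral spinal progenitor domain factors followed here are 10 transcription factor genes, *Olig1*, *Olig2*, *Nkx2-2*, *Nkx2-9*, *Nkx6-1*, *Nkx6-2*, *Pax6*, *Irx3*, *Dbx1* and *Dbx2*. They were chosen by name among the 55400 genes of the count table, and each symbol matched 1 gene. The 21 RNA-seq libraries came from motor neurons (MNs) differentiated from wild-type C57BL/6 mouse embryonic stem cells (mESCs) that had been grown on mitotically inactivated embryonic fibroblasts. The 4 untreated groups were D4, D4H8 (8 h after day 4), D5 and D6, and the 3 treated groups were D4H8, D5 and D6 cells given GSKJ4 during the day before collection. GSKJ4 is a small molecule used in the study to block the enzyme activity of the histone H3K27 demethylase Kdm6b, and it also acts on the related demethylase Kdm6a. Every culture, treated or not, was started as embryoid bodies and moved at D2 into medium with 1 µM retinoic acid and 0.5 µM of the Sonic hedgehog agonist SAG. The Notch pathway inhibitor DAPT, at 5 µM, went into that medium at D4 and at D5 into the base medium, for which retinoic acid and SAG are not named. The step from D5 to D6 and this change of medium cannot be told apart. As DAPT was added on the day the D4 cells were collected, no comparison of D4H8 with D4, treated or not, can be told apart from its addition. Each of the 7 groups held 3 libraries labelled as biological replicates. The labels give no vehicle for the untreated cultures and no dose of GSKJ4.

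In the developing spinal cord, Sonic hedgehog from the notochord and floor plate sets up stripes of dividing progenitors along the dorsoventral axis, and each stripe is defined by the transcription factors it expresses. The motor neuron progenitor domain (pMN) expresses Olig2 and Olig1. The p3 domain, just ventral to it, expresses Nkx2-2 and Nkx2-9. Nkx6-1 and Nkx6-2 span the ventral domains, and the class I factors Pax6, Irx3, Dbx1 and Dbx2 mark the more dorsal side. Boundaries are kept by pairs of factors that repress each other, of which Olig2 with Irx3 and Nkx2-2 with Pax6 are the best known. Olig2 also drives the exit of pMN cells into the motor neuron pathway, and Nkx6-1 stays on in some motor neurons after that exit.

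Trimethylation of H3K27 is typically found at CpG-rich promoters of developmental regulators, so the sequence just upstream of 3 members is given here, with each CpG dinucleotide in capitals. These are RefSeq promoter windows on GRCm38.p6, cut to the bases outside annotated exons and written 5′ to 3′ on the gene's own strand. They lie at chr16:91225300-91225456 on the plus strand for *Olig2*, at chr12:56613285-56613534 on the minus strand for *Nkx2-9* and at chr7:139582798-139583047 on the minus strand for *Nkx6-2*.
Olig2: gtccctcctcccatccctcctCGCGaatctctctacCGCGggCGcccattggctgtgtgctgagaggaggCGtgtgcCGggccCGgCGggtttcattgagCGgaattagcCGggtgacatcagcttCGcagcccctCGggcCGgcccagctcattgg
Nkx2-9: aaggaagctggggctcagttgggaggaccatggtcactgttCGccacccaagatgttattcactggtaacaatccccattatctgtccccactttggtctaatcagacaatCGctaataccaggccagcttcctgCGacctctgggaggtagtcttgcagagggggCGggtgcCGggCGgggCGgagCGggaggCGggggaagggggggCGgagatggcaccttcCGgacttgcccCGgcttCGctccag
Nkx6-2: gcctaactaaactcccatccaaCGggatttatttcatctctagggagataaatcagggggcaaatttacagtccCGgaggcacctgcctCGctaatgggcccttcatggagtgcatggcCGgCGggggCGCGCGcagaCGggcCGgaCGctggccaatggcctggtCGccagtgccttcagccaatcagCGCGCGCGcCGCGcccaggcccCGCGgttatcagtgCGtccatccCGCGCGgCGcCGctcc
These stretches hold 14, 13 and 26 CpG, respectively. A window was given for 9 of the 10 members. In the 250 bases upstream of the RefSeq start the number of CpG ran from 8 in *Nkx2-2* to 30 in *Nkx6-1*, against a median of 6 over all 32851 windows. The windows of *Nkx2-2*, *Nkx6-1*, *Irx3* and *Dbx2*, and a second window of *Pax6*, lay inside the annotated gene and not upstream of it. The share of all windows with fewer CpG was 94.1% for *Nkx6-1*, 90.4% for *Nkx6-2* and 85.2% for *Olig2*. It was 72.7% for each window of *Pax6* and 68.5% for *Nkx2-9* and for *Irx3*. For *Dbx1*, *Dbx2* and *Nkx2-2* it was 66.5%, 59.7% and 57.0%. Chromatin marks were not analysed here.

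The members lie on 7 chromosomes of GRCm38. *Olig1* (chr16:91269772-91271933) and *Olig2* (chr16:91225457-91228677) are neighbours on the plus strand with 41095 bases between them. *Nkx2-2* (chr2:147177546-147194243, minus strand) and *Pax6* (chr2:105668900-105697364, plus strand) share chromosome 2, and *Nkx6-2* (chr7:139579376-139582797) and *Dbx1* (chr7:49631499-49636849) share chromosome 7, both on the minus strand. *Nkx2-9* (chr12:56611389-56613284), *Nkx6-1* (chr5:101658139-101664996), *Irx3* (chr8:91798525-91802067) and *Dbx2* (chr15:95623563-95655960) are on the minus strand. The exons of 4 members overlap exons of a gene on the other strand, over 7.26% of the exonic bases of *Olig1* (*Gm15966*), 9.67% of *Nkx2-2* (*Nkx2-2os*), 12.9% of *Nkx6-2* (*Inpp5a*) and 4.49% of *Irx3* (*Irx3os*). The counting strand was not stated, so reads in these overlaps could not be assigned to a strand.

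Counted reads per library ran from 14982115 to 34383842 (median 16238435), and the largest total belonged to replicate 1 of untreated D4H8. The cultures also held signal from other cells. The summed FPKM (fragments per kilobase of exon, scaled to library depth) of 5 pluripotency markers ran from 120.6 to 284.9 at D4 and from 11.25 to 90.6 at D6, and replicate 1 had the lowest sum in each of the 7 groups. The sum of 6 fibroblast markers ran from 3.70 to 26.0 over all libraries. Of the oligodendrocyte-lineage markers, which matter here because Olig1 and Olig2 are also expressed in that lineage, *Sox10* was at most 0.25 FPKM and *Cspg4* at most 0.13 FPKM in any library. In bulk RNA, a lower level can come from fewer cells of a type or from less RNA per cell, and these cannot be told apart.

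Levels at the first stage put a p3 and a pMN factor highest. At D4 the mean FPKM was 69.5 for *Nkx2-9*, 47.5 for *Olig2*, 27.2 for *Nkx6-1* and 21.5 for *Nkx6-2*. *Irx3*, *Olig1* and *Pax6* followed at 9.69, 8.60 and 7.29, and their ranges over libraries overlapped. *Dbx1* (3.08), *Nkx2-2* (1.39) and *Dbx2* (0.357) were lowest. The ranges of *Nkx2-9* and *Olig2* overlapped, as did those of *Nkx6-1* and *Nkx6-2*, so the order within each of these pairs lay within the spread of the replicates. By D6 the order was different, with *Nkx6-1* at 143, *Nkx6-2* at 33.8 and *Irx3* at 29.8 FPKM, and the other 7 members at 3.22 FPKM or less. The plot of FPKM by library shows these levels for all 10 members.

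**Figure D1:**
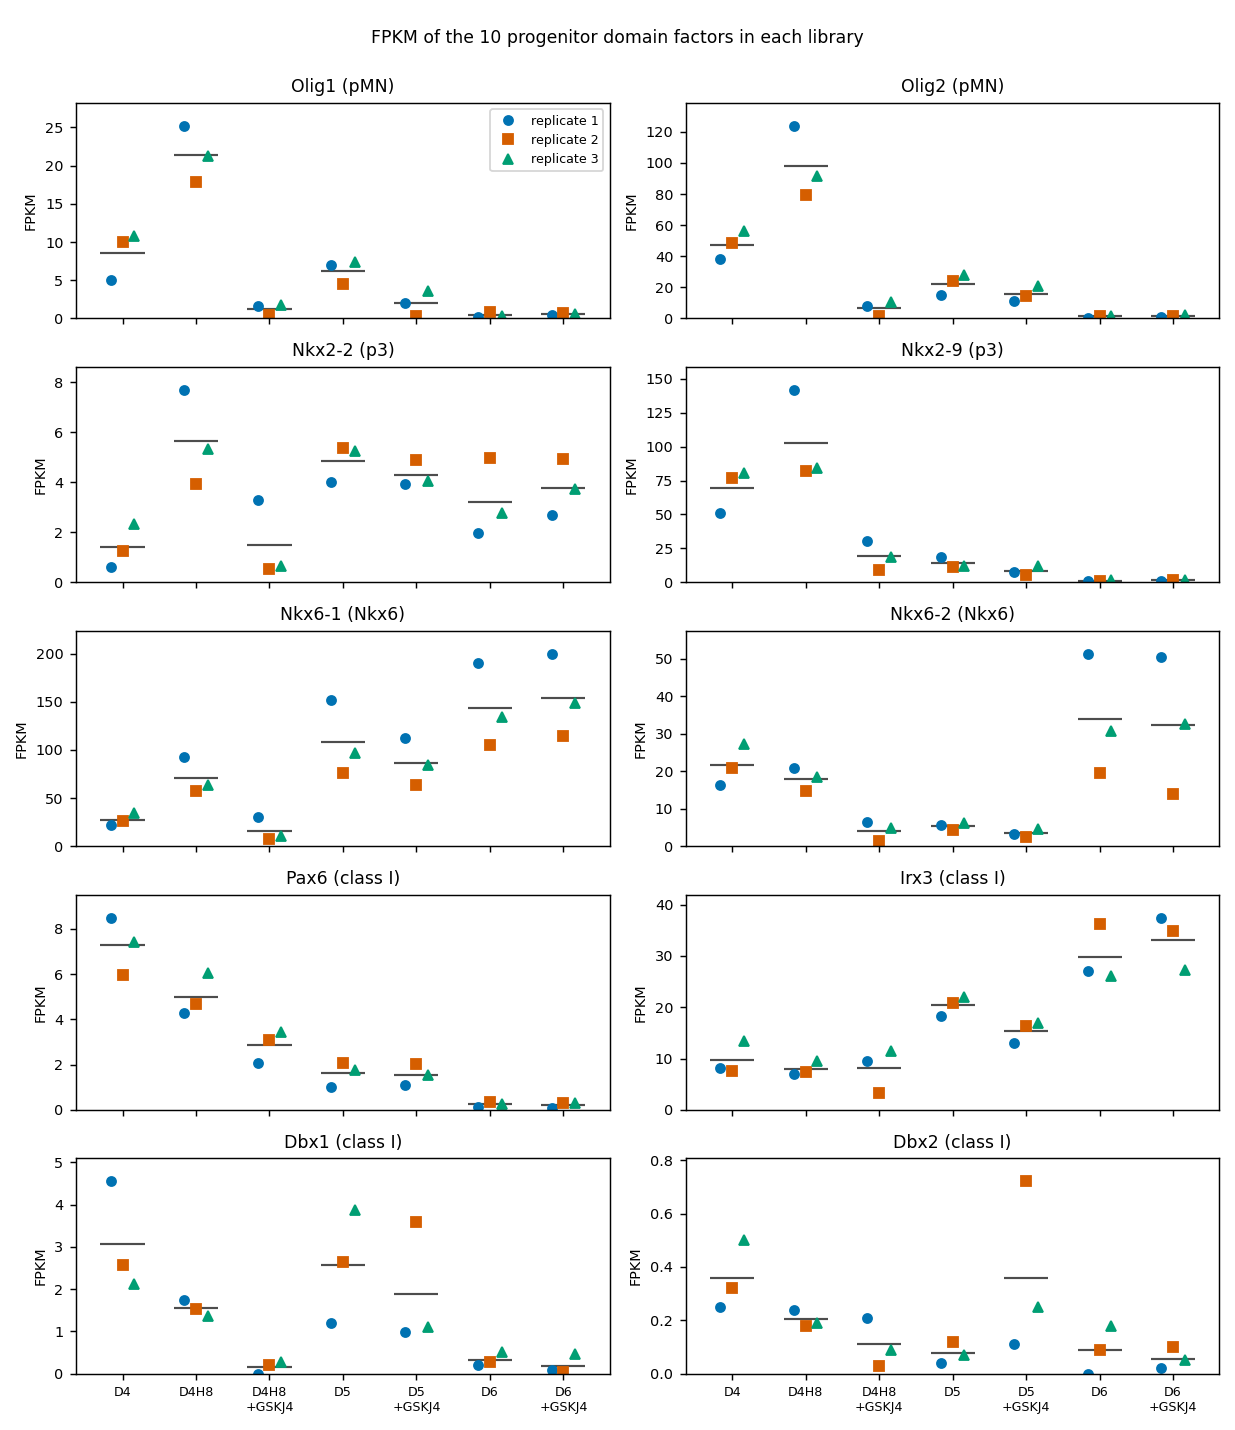
FPKM of each member (y axis, linear from 0, a scale of its own in each panel) in the 7 groups (x axis). Points are single libraries, marked by replicate number, and horizontal lines are group means (n = 3). *Olig1*, *Olig2* and *Nkx2-9* peaked at untreated D4H8 and were low in D4H8 cells with GSKJ4, whereas *Nkx6-1* and *Irx3* were highest at D6.

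Both pMN factors peaked at D4H8 and were nearly gone at D6. *Olig2* stood at 38.0, 48.4 and 56.03 FPKM in replicates 1, 2 and 3 at D4, at 124, 79.4 and 91.7 at D4H8, at 15.2, 24.2 and 27.8 at D5 and at 0.510, 1.66 and 1.54 at D6. No 2 stages overlapped. *Olig1*, its neighbouring paralogue, was at 4.97, 10.0 and 10.8 FPKM at D4, at 25.2, 17.9 and 21.2 at D4H8, at 6.95, 4.50 and 7.36 at D5, and at 0.20, 0.87 and 0.38 at D6. Its D4 and D5 libraries overlapped. By the quasi-likelihood test of edgeR, with p-values adjusted by Benjamini-Hochberg over all genes tested, *Olig2* rose from D4 to D4H8 by 1.02 on the log2 scale (SE 0.268, adjusted p = 0.0480) and *Olig1* by 1.30 (SE 0.315, adjusted p = 0.0309). *Olig2* then changed by -2.14 (SE 0.278, adjusted p = 6.41e-05) from D4H8 to D5 and by -4.07 (SE 0.332, adjusted p = 1.91e-06) from D5 to D6. *Olig1* followed with -1.77 (SE 0.322, adjusted p = 0.001) and -3.58 (SE 0.404, adjusted p = 2.3e-05). The falls passed the threshold under all 19 alternatives run for each step, but the first rise rested on few libraries. For *Olig2* it was past the threshold in 3 of 12 refits that each left out 1 library (log2 0.79 to 1.16), and any D4 or D4H8 library was enough to lose it. For *Olig1* it was past the threshold in 8 of the 12, and was lost without D4 replicate 1 or 2 or D4H8 replicate 1 or 3 (log2 1.08 to 1.41).

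The p3 factors did not move together. *Nkx2-9* was at 51.0, 77.0 and 80.4 FPKM at D4, at 142, 82.0 and 84.1 at D4H8, at 18.2, 11.3 and 12.3 at D5 and at 0.680, 0.840 and 1.41 at D6. It thus had the shape of *Olig2*, with each stage apart from the next. *Nkx2-2* was at 0.610, 1.26 and 2.31 FPKM at D4, at 7.68, 3.94 and 5.32 at D4H8, at 3.99, 5.37 and 5.23 at D5, and at 1.96, 4.96 and 2.75 at D6. Its first group lay below the others, apart from an overlap with D6, and the D4H8, D5 and D6 libraries overlapped. The first step of *Nkx2-9* did not pass the test (log2 0.54, SE 0.247, adjusted p = 0.297), whereas *Nkx2-2* rose by 2.02 (SE 0.409, adjusted p = 0.0105). The rise of *Nkx2-2* was lost without D4 replicate 2 (log2 1.96) or D4H8 replicate 1 (log2 1.70). *Nkx2-9* then changed by -2.88 (SE 0.269, adjusted p = 3.35e-06) and -3.73 (SE 0.341, adjusted p = 4.54e-06) in the later steps. *Nkx2-2* gave -0.23 (adjusted p = 0.708) and -0.49 (adjusted p = 0.365), values within the spread of its replicates.

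The Nkx6 factors, which help set the ventral domains apart from the more dorsal ones, ended above where they began in mean FPKM. For *Nkx6-2* the D4 and D6 libraries overlapped. *Nkx6-1* was at 21.4, 25.7 and 34.6 FPKM at D4, at 92.3, 57.1 and 63.8 at D4H8, at 152.2, 75.9 and 97.1 at D5, and at 190.4, 104.8 and 134.7 at D6. Only the first step was free of overlap. *Nkx6-2* was at 16.3, 20.9 and 27.3 FPKM at D4, at 20.7, 14.6 and 18.4 at D4H8, at 5.57, 4.16 and 6.12 at D5, and at 51.3, 19.5 and 30.6 at D6. It therefore dipped at D5, below every library of the other untreated stages. *Nkx6-1* rose by 1.35 (SE 0.294, adjusted p = 0.0165) from D4 to D4H8, a call lost without D4 replicate 1 (log2 1.28), D4 replicate 2 (1.30) or D4H8 replicate 1 (1.09). Its next steps did not pass at 0.61 (SE 0.289, adjusted p = 0.134) and 0.52 (SE 0.288, adjusted p = 0.184). With the replicate number as a block, the step to D5 passed (log2 0.59, adjusted p = 0.0388) and the step to D6 did not (log2 0.53, adjusted p = 0.0517). D4H8, D5 and D6 pair by this number, but the blocked fit also held the D4 libraries, which do not pair with them. *Nkx6-2* changed by -0.29 (adjusted p = 0.656), by -1.76 (SE 0.313, adjusted p = 0.000845) and by 2.81 (SE 0.321, adjusted p = 2.56e-05) in the 3 steps.

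Of the class I factors, *Pax6* fell and *Irx3* rose. *Pax6* was at 8.49, 5.96 and 7.43 FPKM at D4, at 4.26, 4.66 and 6.04 at D4H8, at 1.00, 2.06 and 1.77 at D5, and at 0.120, 0.350 and 0.250 at D6. *Irx3* was at 8.16, 7.58 and 13.3 FPKM at D4, at 7.0, 7.31 and 9.59 at D4H8, at 18.3, 20.8 and 22.1 at D5, and at 27.1, 36.2 and 26.0 at D6. From D4H8 on, the stages of both genes did not overlap. *Pax6* changed by -1.63 (SE 0.282, adjusted p = 0.00071) to D5 and by -2.65 (SE 0.328, adjusted p = 4.85e-05) to D6. *Irx3* rose by 1.36 (SE 0.194, adjusted p = 0.000139) and by 0.66 (SE 0.188, adjusted p = 0.0153), the latter lost without D6 replicate 2 (log2 0.51). Their first steps, -0.62 and -0.33, did not pass (adjusted p = 0.268 and 0.419).

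*Dbx1* and *Dbx2*, which mark intermediate interneuron progenitors, were the lowest class I members at D4 and D4H8, while at D5 and D6 the ranges of *Dbx1* and *Pax6* overlapped. *Dbx1* was at 4.55, 2.57 and 2.12 FPKM at D4, at 1.75, 1.53 and 1.37 at D4H8, at 1.21, 2.64 and 3.88 at D5, and at 0.210, 0.270 and 0.520 at D6. The last step was the one that passed, at -2.84 (SE 0.493, adjusted p = 0.000659). *Dbx2* stayed under 1 FPKM in every library, with at most 39 reads in any one of them, and no step passed.

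Counted over the members, the first step had 4 of 10 called, all higher (*Olig1*, *Olig2*, *Nkx2-2* and *Nkx6-1*), where 4.06% of the 17519 genes tested were higher and 0.32% lower. The step to D5 had 5 members lower (*Olig1*, *Olig2*, *Nkx2-9*, *Nkx6-2* and *Pax6*), against a background of 10.5%, and 1 higher (*Irx3*), against 17.2%. The step to D6 had 5 lower (*Olig1*, *Olig2*, *Nkx2-9*, *Pax6* and *Dbx1*), against 15.1%, and 2 higher (*Nkx6-2* and *Irx3*), against 19.2%. Between D4 and D6 all 10 were called, 6 lower against 31% of genes and 4 higher against 32.9%. The 4 that were higher at D6 than at D4 were *Nkx6-1* (log2 2.49, adjusted p = 7.43e-06), *Irx3* (1.69, adjusted p = 3.89e-06), *Nkx2-2* (1.31, adjusted p = 0.0123) and *Nkx6-2* (0.75, adjusted p = 0.0381). Over the same span 5 of 9 general neural progenitor genes, among them *Sox3* and *Hes5*, were lower and none was higher. The *Nkx6-2* value moved to 0.27 without D6 replicate 1, and its call was also lost without D4 replicate 1 (0.60) or 2 (0.72) or D5 replicate 2 (0.70) or 3 (0.71). The *Nkx2-2* call was lost without D4 replicate 1 (0.93) or D6 replicate 2 (0.88), and that of *Dbx2* (-1.88, adjusted p = 0.0262) without D4 replicate 3 (-1.67) or D6 replicate 1 (-1.31) or 2 (-1.87). Without D6 replicate 3 *Dbx2* was at -2.84.

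With GSKJ4 at D4H8, factors of every ventral group were lower. *Olig2* was at 8.14, 1.85 and 10.8 FPKM with GSKJ4, below all 3 untreated values of 79.4 or more, and its mean went from 98.2 ± 22.8 to 6.93 ± 4.59 FPKM (SD, n = 3). *Olig1* was at 1.60, 0.460 and 1.82 FPKM against 17.9 or more. The log2 fold changes were -3.91 (SE 0.514, adjusted p = 0.0103) and -4.12 (SE 0.412, adjusted p = 0.003), the most negative values among the 10 members. Both calls held in all 6 refits that left out 1 library, at -4.34 to -3.48 and -4.41 to -3.75.

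Of the p3 factors, *Nkx2-9* was at 30.8, 8.77 and 18.3 FPKM with GSKJ4, all below the untreated libraries, and changed by -2.48 (SE 0.406, adjusted p = 0.0202). *Nkx2-2* was at 3.27, 0.530 and 0.640 FPKM, below its untreated libraries too, at -2.0 (SE 0.623, adjusted p = 0.0920). The Nkx6 factors both fell. *Nkx6-1* was at 30.4, 6.99 and 10.6 FPKM with GSKJ4, at -2.22 (SE 0.472, adjusted p = 0.0383), and *Nkx6-2* was at 6.33, 1.25 and 4.71 FPKM, at -2.20 (SE 0.451, adjusted p = 0.0348). In these 4 genes replicate 2 had the lowest treated value.

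The class I factors split. *Irx3*, the repressor partner of Olig2, was at 9.57, 3.30 and 11.4 FPKM with GSKJ4 against 7.0, 7.31 and 9.59 without, with a log2 fold change of -0.04 (SE 0.363, adjusted p = 0.953). *Pax6* was at 2.06, 3.07 and 3.43 FPKM, below its untreated libraries, at -0.83 (SE 0.239, adjusted p = 0.0766). *Dbx1* had 0, 7 and 9 reads with GSKJ4 against 126, 52 and 43 without, and fell by 3.33 on the log2 scale (SE 0.724, adjusted p = 0.0397). *Dbx2* had 12, 2 and 5 reads against 29, 10 and 10, and did not pass (adjusted p = 0.366).

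Altogether 6 of the 10 members were lower with GSKJ4 at D4H8 (*Olig1*, *Olig2*, *Nkx2-9*, *Nkx6-1*, *Nkx6-2* and *Dbx1*) and none was higher, where 1.85% of the 16269 genes tested were lower and 2.11% higher. The treated and untreated libraries did not overlap in 8 members, against 33.7% of all genes. The median log2 fold change of all genes tested was 0.02. Leaving out any one untreated library, or treated replicate 3, reduced the calls from 6 members to *Olig1* and *Olig2*, with *Nkx2-9* at -2.63 to -2.15 (adjusted p = 0.0516 to 0.106), *Nkx6-1* at -2.36 to -1.96, *Nkx6-2* at -2.34 to -2.06 and *Dbx1* at -3.92 to -3.21. Calls over all genes moved too, from 343 higher and 301 lower in the main fit. They were 2 and 41 of 16778 without untreated replicate 1, and 3 and 47 of 16846 without replicate 2. They were 3 and 44 of 16793 without untreated replicate 3, and 266 and 184 of 16799 without treated replicate 3. With replicates 2 and 3 alone in both groups, *Olig1* passed (-4.14, adjusted p = 0.0399) and *Olig2* did not (-3.82, adjusted p = 0.106). There, 1 gene was higher and 71 lower of 16451.

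Markers of other cell types were read beside this result. At D4H8 the summed FPKM of the pluripotency markers was 55.2 to 236.3 without and 108.0 to 243.5 with GSKJ4, and that of the fibroblast markers was 5.21 to 12.7 and 8.72 to 26.0. None of the 5 pluripotency genes and none of the 5 fibroblast genes tested was called, with list medians of 0.71 and 0.73 on the log2 scale, and their part in the result was not tested. The sum of the 9 general neural progenitor genes was 180.1 to 223.9 without and 70.4 to 150.4 with GSKJ4, lowest in treated replicate 2, and its part in the result was not tested either. Without treated replicate 2, 7 members were called, *Pax6* being the addition (-0.96, adjusted p = 0.0446). In that fit 998 genes were higher and 748 lower of 16694. Without treated replicate 1 there were also 7 members, with *Nkx2-2* at -3.30 (adjusted p = 0.0091), where 193 genes were higher and 348 lower of 16744.

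**Figure D2:**
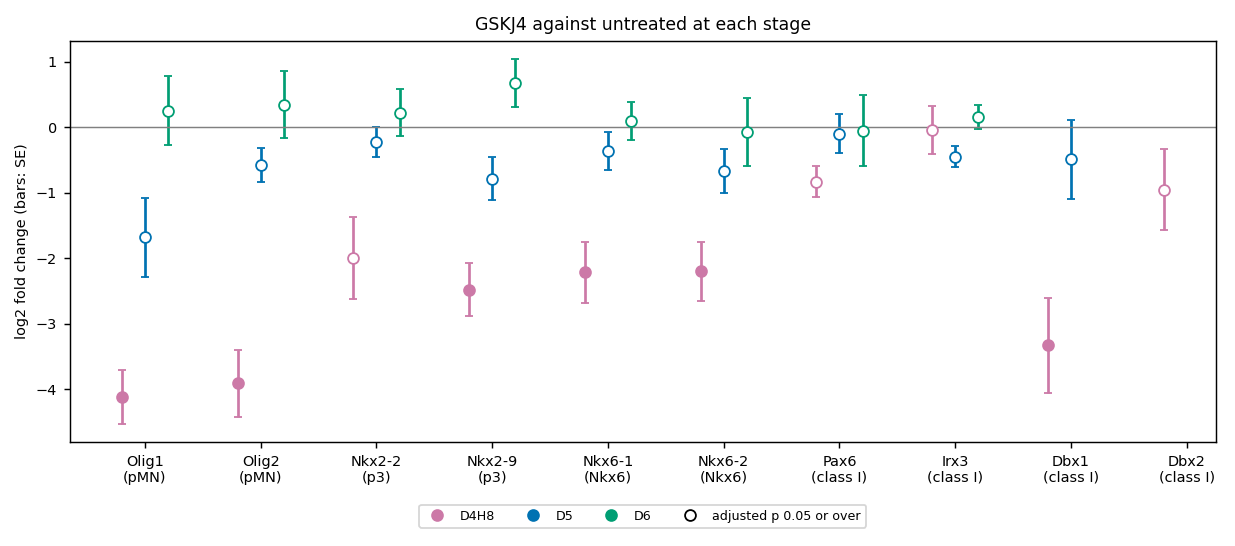
Log2 fold change of GSKJ4 over untreated cells (y axis, bars are SE) for each member (x axis) at D4H8, D5 and D6, 3 libraries against 3. Filled points passed an adjusted p of 0.05, and genes that did not reach the minimum count at a stage have no point. At D4H8 the filled points run from -4.12 (*Olig1*) to -2.20 (*Nkx6-2*), with *Irx3* at -0.04, and no point is filled at D5 or D6.

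D4H8 cells with GSKJ4 were also compared with untreated D4 cells, collected 8 h earlier. 6 members were lower than at D4, against 1.02% of the 16225 genes tested, and none was higher, against 1.08%. *Olig2* was lower by 2.91 on the log2 scale (SE 0.459, adjusted p = 0.0209) and *Olig1* by 2.84 (SE 0.448, adjusted p = 0.0209). *Dbx1* gave -4.42 (adjusted p = 0.0218), *Nkx6-2* gave -2.51 (adjusted p = 0.0273), *Nkx2-9* gave -1.96 (adjusted p = 0.0309) and *Pax6* gave -1.46 (adjusted p = 0.0281). In the main fit these 6 genes were thus under their D4 level in the treated cells. This difference cannot be told apart from the addition of DAPT. *Nkx6-1* (-0.88, adjusted p = 0.235), *Nkx2-2* (0.00, adjusted p = 0.999) and *Irx3* (-0.39, adjusted p = 0.563) did not pass. Without treated replicate 1, *Nkx6-1* was at -1.72 (adjusted p = 0.0230). Without D4 replicate 1 the single call was *Olig1* (-3.08, adjusted p = 0.0427), and without D4 replicate 2 or 3 no member passed, with *Olig2* at -2.91 and -2.82. Over all genes, 175 higher and 165 lower in the main fit became 0 and 25 of 16881 without D4 replicate 1. They became 0 and 11 of 16789 without D4 replicate 2, and 1 and 15 of 16792 without D4 replicate 3.

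At D5 no member passed the test, and 1 of 16309 genes (0.00613%) did, in edgeR's quasi-likelihood test. At an unadjusted p under 0.05 there were 767 genes, and DESeq2 called 74. *Olig2* was at 11.35, 14.2 and 20.8 FPKM with GSKJ4 against 15.2, 24.2 and 27.8 without, and the groups overlapped (log2 -0.58, SE 0.260, adjusted p = 0.976). *Olig1* was at 2.04, 0.380 and 3.60 FPKM, all below its untreated libraries, at -1.68 (SE 0.607, adjusted p = 0.976). The library at 0.380, replicate 2, stood apart, with 39381 genes at a count of 0 against 29339 to 32805 in the other libraries. Without it the value for *Olig1* was -1.19 (adjusted p = 0.947), the weakest of the refits that left out 1 library, which reached -2.36. *Irx3* was at 13.0, 16.3 and 16.9 FPKM, also below its untreated libraries, at -0.45 (SE 0.159, adjusted p = 0.976). Of the 9 members tested, these 2 were free of overlap, where 11.7% of all genes were. With no filter on low counts *Olig1* passed at D5 (adjusted p = 0.00393). *Dbx2* did not reach the minimum count.

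At D6 no member and no gene of 16301 (0%) passed in edgeR without a block, 222 genes had an unadjusted p under 0.05, and DESeq2 called 1. The replicate numbers pair the D6 libraries, and with the replicate block 257 genes were called, none of them a member. The member with the lowest blocked adjusted p was *Nkx6-1* (log2 0.11, adjusted p = 0.225), at 200.1, 114 and 149 FPKM with GSKJ4 and 190.4, 104.8 and 134.7 without. *Olig2* was at 0.750, 1.78 and 2.20 FPKM against 0.510, 1.66 and 1.54 (log2 0.35, SE 0.510). All 8 members tested overlapped between groups, where 5.29% of all genes did not.

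The difference in GSKJ4 effect between stages was tested directly. The window of exposure to GSKJ4 moved with the stage, so stage and window cannot be told apart. For *Olig2* the effect was higher at D5 than at D4H8 by 3.34 on the log2 scale (SE 0.632, adjusted p = 0.0265) and higher at D6 than at D4H8 by 4.28 (SE 0.694, adjusted p = 0.00539). *Olig1* (4.39, SE 0.872, adjusted p = 0.0228) and *Nkx2-9* (3.18, SE 0.614, adjusted p = 0.0205) also differed between D6 and D4H8. That made 1 member higher at D5 (0.232% of the 18103 genes tested were) and 3 at D6 (0.552%), with none lower, where 0.0166% and 0.182% of genes were. The other members did not pass, among them *Nkx6-1* (1.84 and 2.33, adjusted p = 0.292 and 0.0908). No member differed between D6 and D5, nor did any gene in edgeR, with 358 genes at an unadjusted p under 0.05 and 1 called by DESeq2. The D6 difference of *Olig2* passed under all 26 alternatives. Its D5 difference was lost without D4H8 replicate 1 (3.07), D5 replicate 1 (3.15), 2 (3.39) or 3 (3.49), or treated D5 replicate 3 (3.06). The D6 difference of *Olig1* was lost without D4H8 replicate 1 (4.2), D6 replicate 1 (4.04) or 3 (4.22), or treated D6 replicate 2 (4.29) or 3 (4.34). That of *Nkx2-9* was lost without D4H8 replicate 1 (2.80), D6 replicate 1 (3.00) or 2 (3.08), or treated D6 replicate 2 (3.04) or 3 (3.15). Without treated D4H8 replicate 1, 4 members differed at D5 and 5 at D6, with *Nkx2-2* at 3.07 and 3.54 and *Nkx6-1* at 2.69 and 3.17. Over all 18675 genes of that fit, 159 were higher and 13 lower at D5, and 234 and 50 at D6.

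The stage steps were also fitted within the treated cultures, which share no library with the untreated ones. Each treated group had GSKJ4 only during the day before its own collection, so no culture was treated throughout a step. The stage and the window of exposure cannot be told apart. The direct test of the difference, given above, called *Olig2* for the step from D4H8 to D5 and no member for the step from D5 to D6. From D4H8 to D5 with GSKJ4, *Nkx6-1* rose by 2.44 (SE 0.476, adjusted p = 0.00591) and was the 1 member called, where 9.59% of the 17217 genes tested were higher and 4.65% lower. The same step gave 1.18 for *Olig2* (SE 0.502, adjusted p = 0.143), which did not pass, where the untreated step gave -2.14. Every treated D5 library was above every treated D4H8 library for *Olig2*, but 33.6% of all genes were free of overlap in this comparison. From D5 to D6 with GSKJ4, 3 members were lower, *Olig2* (-3.17, adjusted p = 0.00449), *Nkx2-9* (-2.30, adjusted p = 0.00847) and *Pax6* (-2.63, adjusted p = 0.00311), against 4.7% of genes. 2 were higher, *Nkx6-2* (3.37, adjusted p = 0.00431) and *Irx3* (1.23, adjusted p = 0.0318), against 7.24%. Without treated D5 replicate 2, *Olig1* also passed (-2.17, adjusted p = 0.0304, against -1.68 and 0.175 with it). The *Irx3* call was lost without any one of the treated D5 libraries or treated D6 replicate 1 or 2 (1.10 to 1.29).

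**Figure D3:**
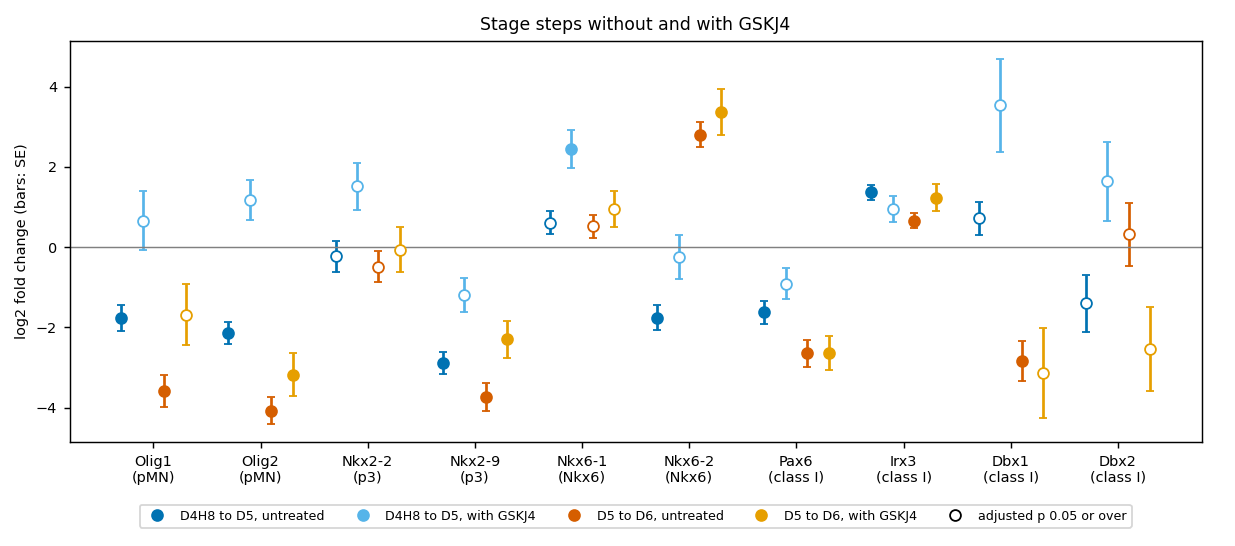
Log2 fold change of each member (x axis) over the steps D4H8 to D5 and D5 to D6 (y axis, bars are SE), 3 libraries per group. Steps are between untreated groups, or between groups each given GSKJ4 only during the day before its own collection. Filled points passed an adjusted p of 0.05. From D4H8 to D5 *Olig2* is at -2.14 untreated and 1.18 with GSKJ4, and from D5 to D6 at -4.07 and -3.17.

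The balance of pMN factors against those of the neighbouring domains was given as a log2 ratio of summed FPKM in each library, with no test. *Olig1* plus *Olig2* over *Nkx2-2* plus *Nkx2-9* gave -0.26, -0.42 and -0.31 at D4 and -0.01, 0.18 and 0.34 at D4H8. With GSKJ4 at D4H8 the ratio was -1.80, -1.96 and -0.59, below all untreated values at that stage. It was -0.01, 0.78 and 0.99 at D5 without and 0.24, 0.46 and 0.60 with GSKJ4, and from -1.76 to -0.90 in all D6 libraries. In summed FPKM the p3 set was mostly *Nkx2-9* at D4H8 and mostly *Nkx2-2* at D6. In CPM, which is not per length, the mean of this ratio was 0.60 at D4 and 1.04 at D4H8, against -0.33 and 0.17 in FPKM, so which sum was the larger at D4 depended on the scale. With *Olig2* against *Nkx2-2* alone it was 5.15 at D4, 4.12 at D4H8, 2.27 at D4H8 with GSKJ4 and -1.36 at D6.

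Against the class I factors, the ratio had a larger swing. *Olig1* plus *Olig2* over the sum of *Pax6*, *Irx3*, *Dbx1* and *Dbx2* was 1.00, 1.82 and 1.51 at D4, 3.48, 2.82 and 2.71 at D4H8, 0.11, 0.16 and 0.34 at D5 and -5.09, -3.81 and -3.74 at D6. With GSKJ4 at D4H8 it was -0.28, -1.48 and -0.27. Treated D4H8 libraries were thus on the class I side of 0 and below every untreated D4, D4H8 and D5 library. At D5 with GSKJ4 it was -0.19, -0.64 and 0.30, and at D6 -4.88, -3.79 and -3.26, overlapping the untreated libraries at both stages. In mean FPKM, *Irx3* made up 29.8 of the class I sum of 30.4 at untreated D6, where *Pax6*, *Dbx1* and *Dbx2* were lower than at D4. At D4H8 with GSKJ4 *Irx3* made up 8.09 of 11.2. The ratio at D6 was thus one to *Irx3* and not to the class I factors as a set.

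**Figure D4:**
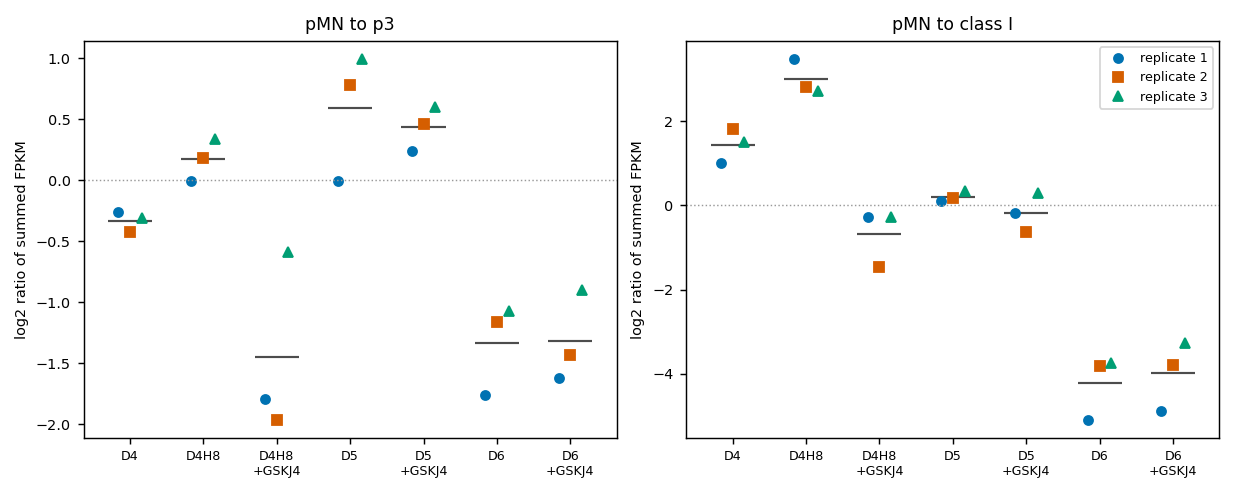
Log2 ratio of summed FPKM of *Olig1* and *Olig2* to that of *Nkx2-2* and *Nkx2-9* (left) and to that of *Pax6*, *Irx3*, *Dbx1* and *Dbx2* (right), y axis, in the 7 groups, x axis, with 0.1 FPKM added to each sum. Points are libraries and lines are means (n = 3). At D4H8 the mean goes from 0.17 to -1.45 (left) and from 3.00 to -0.67 (right) with GSKJ4.

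Lists of other genes of the pathway were read from the same fits. Of 8 floor plate and Shh response genes, none was called from D4 to D4H8. From D4H8 to D5, 5 were lower, against 10.5% of all genes tested. Among them were *Gli1* (-2.11, SE 0.282, adjusted p = 8.2e-05), a direct target and effector of Shh signalling, and *Ptch1* (-1.20), the Shh receptor. 2 were higher, against 17.2% of all genes tested, among them *Shh* itself (3.17). The median of the list was -0.93 against 0.01 for all genes. With GSKJ4 at D4H8, 2 of the 8 were lower, against 1.85% of all genes tested, and none was higher. They included the negative regulator *Hhip* (-1.14, adjusted p = 0.0275), and the list had a median of -0.81 against 0.02.

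With GSKJ4 at D4H8, 1.85% of all genes tested were lower and 2.11% higher. Of 14 factors of other progenitor domains, 8 were tested there and 2 were called, both lower, *Sp8* (-2.26, adjusted p = 0.00274) and the p1 factor *Prdm12* (-3.37, adjusted p = 0.0194). Of 9 general neural progenitor genes, 3 were lower, *Hes5* (-3.56), *Fabp7* (-2.97) and *Sox3* (-2.32). Of the motor neuron genes, 6 of 7 were tested and 3 were lower, *Lhx3* (-3.10), *Isl1* (-2.44) and *Chat* (-1.80). None of the 2 interneuron genes tested was called, and of the 4 oligodendrocyte-lineage genes tested *Cspg4* was higher (2.22, adjusted p = 0.0459), at 0.130 FPKM or less. In untreated cells 5 of the 7 motor neuron genes were already higher at D4H8, when *Olig2* peaked, than at D4, against 4.06% of all genes tested. All 7 were higher at D5 than at D4H8, against 17.2%. *Irx5*, a paralogue of *Irx3* in the same gene cluster, rose as *Irx3* did, by 2.05 from D4H8 to D5 and by 1.80 from D5 to D6.

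Levels of *Nkx6-1* and *Nkx6-2* also differed by replicate number after D4. In untreated D4H8, D5 and D6 and in the 3 treated groups, replicate 1 had the highest *Nkx6-1*, replicate 2 the lowest and replicate 3 lay between, while at D4 replicate 1 was the lowest for both genes. *Nkx6-2* had the order of *Nkx6-1* at D4H8 and D6, with and without GSKJ4, and at D5 it was highest in replicate 3 in both groups. At D6 it stood at 51.3, 19.5 and 30.6 FPKM without and 50.4, 13.9 and 32.6 with GSKJ4. Replicate 1 was the one with the lowest pluripotency sum, 11.25 FPKM at untreated D6 against 90.6 and 81.0 in replicates 2 and 3, and its part in these levels was not tested. *Olig2* at D6 was lowest in replicate 1, both without and with GSKJ4.

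Across the 21 libraries, which share stages and treatments, log2 CPM of *Olig2* had a Pearson correlation of 0.93 with *Olig1*, 0.93 with *Nkx2-9* and 0.87 with *Pax6*, and of -0.59 with *Irx3*. *Nkx2-2* had a correlation of 0.14 with *Olig2* and of 0.74 with *Nkx6-1*. Among 11112 other genes with a mean of at least 100 counts, those most like *Olig2* included *Sox2ot* (0.965), *Pimreg* (0.963), *H2afv* (0.957) and *Nedd9* (0.956). Those most like *Nkx2-2* were *Trp53i11* (0.901), *Trib1* (0.872), *Miat* (0.868), *Fam110a* (0.865) and *Frmd4b* (0.861). Those most like *Irx3* were *Crnde* (0.963), *Nyap1* (0.960), *Sh3bp2* (0.959), *Kcp* (0.959) and *Lmtk3* (0.952). *Crnde* lies near *Irx3* and *Irx5* on chromosome 8. These correlations are descriptions of 7 groups of libraries.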

How the data were processed

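Poly(A) RNA-seq of 21 libraries was analysed. The raw counts per gene were made by the authors, who trimmed reads, used HISAT2 for alignment to mm10 and HTSeq for counting, and the deposited FPKM values were computed by the authors from those counts and gene lengths. Counting strand was not stated. Groups came from the sample labels. Counts were tested with edgeR 4.0.16 (R 4.3.3) by the quasi-likelihood test with TMM scaling, filterByExpr (minimum count 10) and p-values adjusted by Benjamini-Hochberg over the genes of each fit, called at 0.05. The fits held the 12 untreated libraries, the 9 treated libraries, the 6 of each GSKJ4 comparison, or the 18 of the differences between stages. No block was used in these fits, and DESeq2 1.42.0, other scalings and filters, a replicate block and leaving out libraries were the alternatives. The SE was the absolute log2 fold change over the square root of F. The script was tested on simulated data. FPKM was used to compare levels between genes, and ratios had a pseudocount of 0.1 FPKM.

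All 10 members are named. Of the other lists, genes past the threshold are named, at most the 4 of largest change per list and direction, and for *Olig2*, *Nkx2-2* and *Irx3* the 5 genes with the highest correlation of log2 CPM. Members and lists were chosen with earlier results of these data known. Same-numbered libraries were taken as pairs where the correlation of their deviations from group means was over 0.1 for each of the 3 numbers over 18349 genes. This held for D6 with and without GSKJ4 (0.663, 0.316 and 0.446), D4H8 with D5 (0.314, 0.147 and 0.136) and D5 with D6 (0.310, 0.144 and 0.226), and not for D4H8 or D5 with and without GSKJ4 (lowest 0.0731 and 0.0384). The pairing comes from these correlations and not from the labels. Chromosome positions are from GENCODE M21 on GRCm38, the build of the alignment. A few genes that the naming rule selects are not reported here.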

Additional observations from a re-analysis of the deposited data

Results flagged for a closer look

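The effect of GSKJ4 differed between stages in 4 results, by edgeR's test of the difference itself. For *Olig2* the log2 fold change was 3.34 higher at D5 and 4.28 higher at D6 than at D4H8. For *Olig1* it was 4.39 higher and for *Nkx2-9* 3.18 higher at D6 than at D4H8. The groups had 3 libraries each, so single libraries were not flagged by their distance from the rest of a group. Those that stood apart are described with the results above.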

How the results depend on the processing

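Over 3873 alternatives for 220 results, 3218 log2 fold changes kept their direction and their side of the threshold, 203 lost the call, 65 gained one and 47 values called in neither fit changed sign. With no filter on low counts the members called were 7 for D4H8 against D4, 1 for GSKJ4 at D5, 6 for the difference of the GSKJ4 effect between D5 and D4H8, 6 for that between D6 and D4H8 and 6 for D5 against D4H8 with GSKJ4. With DESeq2 the last 2 were 6 and 5. With 1 fit over all 21 libraries, D4H8 against D4 had 1, D5 against D4H8 with GSKJ4 had 6 and D6 against D5 with GSKJ4 had 8. With the replicate block, the differences at D5 and D6 against D4H8 had 2 and 5 and D5 against D4H8 with GSKJ4 had 2, where the libraries share only a number, and GSKJ4 at D4H8 had 8. For comparisons of groups that pair, the block changed no member's call other than that of *Nkx6-1* from D4H8 to D5. The blocked fit of the untreated libraries also held D4, which does not pair. Leaving out each library in turn gave 0 to 4 for D4H8 against D4, 2 to 7 for GSKJ4 at D4H8, 0 to 6 for D4H8 with GSKJ4 against D4, 0 to 4 and 1 to 5 for the 2 differences, and 1 to 2 for D5 against D4H8 with GSKJ4. Calls over all genes moved with these settings as well. For GSKJ4 at D4H8 they were 343 higher and 301 lower of 16269 in the main fit. They were 1229 and 1058 of 31166 with no filter, and 1235 and 1039 of 16269 with the replicate block. Without D4H8 replicate 1 and treated replicate 2 together, an alternative chosen after seeing the data as was the one with replicates 2 and 3 alone, the 2 differences had 0 and 1. The log2 ratio of pMN to p3 factors turned sign at D4 for *Olig2* against *Nkx2-2* (5.15) and in CPM (0.60), and at D4H8 with GSKJ4 for *Olig2* against *Nkx2-2* (2.27). That of pMN to class I factors turned at D5 for *Olig2* against *Pax6* plus *Irx3* (-0.013) and in CPM (-0.21), and at D5 with GSKJ4 it ran from -0.41 to 0.059 with 1 library left out. The cause was not tested, except that leaving out a library leaves fewer samples. Upper-quartile scaling shifted the median of all genes by -0.19 for D6 against D4 and by -0.10 for D6 against D5, where genes called went from 3369 higher and 2647 lower to 2912 and 3251. *Dbx1* and *Dbx2* had too few reads at some stages for a test.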
